A study of Mus musculus with 6 samples.

Results

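The genes described here are the insulin-like growth factor (IGF) ligands Igf1 and Igf2, the receptors Igf1r and Igf2r, and the binding proteins Igfbp2, Igfbp3, Igfbp4, Igfbp5, Igfbp6 and Igfbp7. They were chosen by gene symbol, and all 10 were found among the 24348 genes of the count table. Gene expression was measured by total RNA-seq in fibroblasts sorted from the synovium, the lining tissue of the joint, of C57BL/6 mice. In the IC group, 3 libraries came from mice given immune complexes, antibodies bound to their antigen, by intravenous injection. In the vehicle group, 3 libraries came from mice given vehicle. According to the study's methods the IC were made of ovalbumin and rabbit antibodies against it. The methods list wild-type mice beside mutant lines and do not say which were used for these libraries. No altered allele and no other agent was named for either group. The number of mice behind a library, their age and sex, the time from injection to collection and the gate used for the sort are not given per library in the sources used here. Nothing there says that libraries of a group came from separate animals, so p-values measure the spread between these libraries, which may be technical.

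Each library held between 40114331 and 56714304 counts. The fibroblast genes Pdgfra, at 910 to 1101 CPM (counts scaled to the same library total), and Col1a1, at 13057 to 16313 CPM, were high in all 6 libraries. The fibroblast marker list summed to 44329 to 46047 CPM after IC and 45237 to 55084 CPM after vehicle. Of its 9 genes 1 was called higher and 2 lower, with a median log2 fold change of -0.16. Every other marker list, including those of lining and sublining fibroblasts, summed to less. Those of muscle satellite cells summed to 106 to 140 CPM after IC and 192 to 260 CPM after vehicle, and those of tendon to 1780 to 2258 CPM and 1028 to 1593 CPM. The corresponding values were 754 to 867 CPM and 543 to 690 CPM for lining fibroblast markers, and 678 to 772 CPM and 428 to 645 CPM for chondrocyte and bone markers. The summed levels of these 4 lists did not overlap between groups, and the other 9 did, among them macrophage markers at 23.4 to 35.2 CPM after IC and 25.9 to 31.6 CPM after vehicle. Most of the macrophage sum was Cd68, at 21.9 to 31.4 CPM after IC and 22.6 to 28.7 CPM after vehicle. Csf1r, Lyz2, C1qb and Cx3cr1 reached at most 2.61 CPM, and Ptprc, Adgre1 and C1qa were absent from the count table. Skeletal muscle markers also overlapped as a sum, at 13.9 to 28.5 CPM after IC and 22.8 to 58.6 CPM after vehicle. Their median log2 fold change was nevertheless -1.96, with 1 of 10 genes called lower. Within the lining fibroblast list and the chondrocyte and bone list the genes differed in direction. Prg4 of the former and Comp of the latter, both abundant, were higher after IC without overlap. So was the less abundant Acan of the latter, at 4.72 to 8.39 CPM in IC libraries against 1.69 to 2.82 CPM in vehicle libraries. Clic5 and Tspan15 of the former and Col2a1 and Sp7 of the latter were lower after IC without overlap. Sp7 reached at most 0.324 CPM in any library, so few reads lie behind its difference. The median log2 fold changes of these lists were -0.06 and -0.00236. In bulk RNA, fewer cells of a type and less RNA per cell cannot be told apart.

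IGF-1 and IGF-2 are secreted growth factors that signal through the IGF-1 receptor, a tyrosine kinase, to the PI3K, AKT and MAP kinase branches, while the IGF-2 receptor takes IGF-2 up for degradation. In tissue fluid most IGF is held by binding proteins, which keep it from the receptor until they are cut by proteases such as PAPP-A. Fibroblasts are a known local source of IGF-1 and of several binding proteins in connective tissue, and IGFBP-7 binds IGF only weakly.

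The levels of the 10 genes spanned a wide range, which was widest between neighbouring genes on chromosome 1. Igfbp5 lies at chr1:72857932-72874884 on the minus strand and Igfbp2 at chr1:72824503-72852474 on the plus strand (GRCm38, the assembly that mm10 names), with 5457 bases between them. The 250 bases before the RefSeq start of each (GRCm38.p6) are printed here because the pair holds the highest and the lowest level of the family, at chr1:72874866-72875115 on the minus strand for Igfbp5 and chr1:72824230-72824479 on the plus strand for Igfbp2. The window of Igfbp4, at chr11:99040994-99041243 on the plus strand, is set beside them because it holds the only TATAAA among the members. Capitals mark TATAAA and its variant TATTTAA on the gene's strand, and the GC box GGGCGG, searched on both strands.
Igfbp5: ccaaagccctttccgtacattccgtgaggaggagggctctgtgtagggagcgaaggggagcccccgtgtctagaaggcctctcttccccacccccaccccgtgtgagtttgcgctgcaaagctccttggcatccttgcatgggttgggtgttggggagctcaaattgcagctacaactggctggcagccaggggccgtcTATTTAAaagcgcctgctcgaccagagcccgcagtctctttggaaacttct
Igfbp2: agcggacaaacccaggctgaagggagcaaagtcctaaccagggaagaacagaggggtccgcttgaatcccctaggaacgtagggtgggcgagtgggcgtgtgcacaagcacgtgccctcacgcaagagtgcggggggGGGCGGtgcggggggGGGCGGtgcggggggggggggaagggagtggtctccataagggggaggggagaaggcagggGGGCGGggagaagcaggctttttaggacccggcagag
Igfbp4: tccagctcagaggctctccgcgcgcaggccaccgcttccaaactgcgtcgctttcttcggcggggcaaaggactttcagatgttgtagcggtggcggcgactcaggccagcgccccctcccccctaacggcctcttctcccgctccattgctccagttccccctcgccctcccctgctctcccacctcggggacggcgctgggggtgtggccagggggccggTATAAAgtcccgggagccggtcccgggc
The Igfbp5 window had 1 TATTTAA, which began 51 bases before the start, 10 CpG sites and a GC content of 58.8%. The Igfbp2 window had 3 GC boxes, 14 CpG sites and a GC content of 67.2%, and RefSeq gives a second Igfbp2 start whose window (chr1:72825137-72825386) held no GC box. The Igfbp4 window had 1 TATAAA, which began 28 bases before the start, and a GC content of 69.2%. Of 32851 RefSeq promoter windows of the same length, 7.59% held TATAAA, 2.26% held TATTTAA and 32.7% held a GC box. GC boxes were also found in the windows of Igf1r, Igf2r, Igfbp7 and some starts of Igf2. The site of STAT factors, TTCNNNGAA, and that of FOXO factors, TGTTTAC, both searched on both strands, were in no window of the 10 members, against 7.02% and 3.17% of all windows. TATTTAA and the GC box were chosen after the sequences were seen, and these matches describe letters and not binding.

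Per length, binding proteins held the upper levels and the ligand Igf2 was near the bottom. Levels between genes are given as TPM, that is counts divided by exon length and scaled to the same total in each library, as the mean of 6 libraries. Igfbp5, a binding protein that also attaches to extracellular matrix, was highest at 2778 TPM, with a range over libraries of 2434 to 3150, and ranked 20 among 23890 genes. Igfbp6, which prefers IGF-2 over IGF-1, followed at 1811 TPM (1443 to 2102). Igfbp3, the main carrier of IGF in serum, had 1220 TPM (795 to 1518), Igfbp7 had 991 TPM (770 to 1080) and Igfbp4, an inhibitor of IGF action, had 843 TPM (674 to 921). The 6 values of Igfbp5 lay above every value of Igfbp6, whereas Igfbp6 and Igfbp3, Igfbp3 and Igfbp7, and Igfbp7 and Igfbp4 overlapped. Igfbp7 nevertheless exceeded Igfbp4 in 6 of 6 libraries. The genes of these binding proteins are spread over the genome, with Igfbp3 at chr11:7206086-7213923, Igfbp4 at chr11:99041244-99054392, Igfbp6 at chr15:102144362-102149511 and Igfbp7 at chr5:77349240-77408041.

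The ligands differed in level from each other far more than the receptors did. Igf1, at chr10:87858265-87937042 on the plus strand, had 286 TPM (247 to 334) and ranked 426. Igf2, at chr7:142650766-142666816 on the minus strand, had 0.683 TPM (0.394 to 0.860), a level 419 times lower than that of Igf1, and its raw counts were 21 to 66 per library. Igf2 shares an imprinted region with H19, a non-coding RNA at chr7:142575529-142578143 that lies 72622 bases from it on the same strand, and the H19 level in TPM was 302 times that of Igf2. The receptors Igf2r (chr17:12682406-12769664) and Igf1r (chr7:67952827-68233668) had 174 TPM (162 to 186) and 51.1 TPM (48.6 to 55.8), so Igf2r was 3.41 times as high. Igf1r was 1.69 times as high as Insr, which encodes the closely related insulin receptor. Igfbp2 was lowest at 0.415 TPM (0.205 to 0.808), 6693 times below its neighbour Igfbp5, and overlapped Igf2. All other neighbours in the order, from Igfbp4 to Igf1, Igf2r, Igf1r and Igf2, did not overlap.

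**Figure D1:**
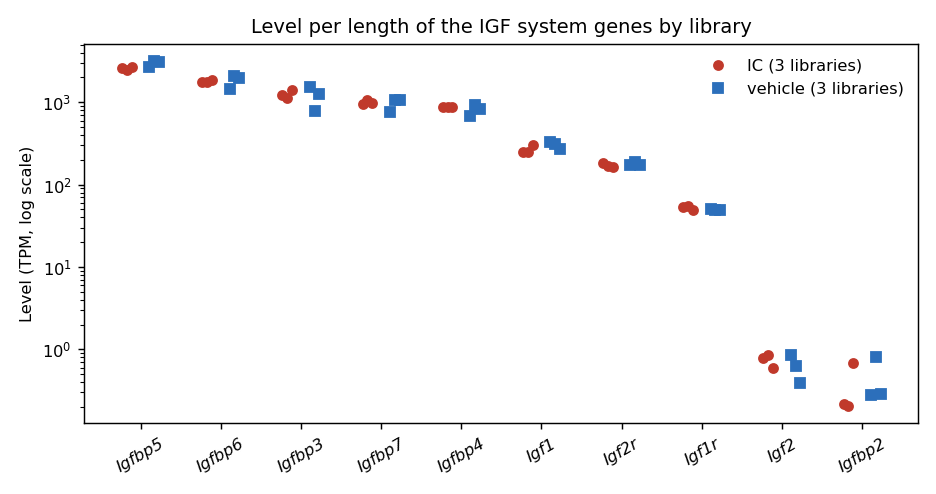
Level of each IGF gene in TPM (log axis), 1 point per library, for 3 IC and 3 vehicle libraries, ordered by the mean. Igfbp5 stands above the other genes at 2434 to 3150 TPM, Igf1 sits at 247 to 334 TPM, and Igf2 and Igfbp2 lie below 1 TPM in all 6 libraries.

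The comparison of IC with vehicle asks whether circulating immune complexes alter this system in synovial fibroblasts. No member passed the test in either direction. Genes counted as called when the Wald test of DESeq2 gave a p under 0.05 after Benjamini-Hochberg adjustment. DESeq2 adjusted over the 16055 tested genes that it kept after its own filter, and genes without an adjusted p counted as not called. By this rule 0 of the 9 tested members were called, against 2.1% of the 19925 genes tested (1.03% higher and 1.07% lower after IC). With edgeR's quasi-likelihood test it was also 0 of 9, against 0.186% of genes. At an unadjusted p under 0.05 there were 2 members by DESeq2, Igf1 and Igfbp5, and 1 by edgeR, Igfbp5, where 1952 and 1920 of the 19925 genes reached it. In counts scaled by size factors, 0 of the 10 members had groups that did not overlap, against 15.8% of the genes tested. In TPM the groups of Igfbp5 did not overlap, so for this gene the overlap depended on the scaling. The log2 fold changes of IC over vehicle were positive for 5 members and negative for 4, with a median of 0.02 and a median size of 0.0758, where the median size over all tested genes was 0.165.

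**Figure D2:**
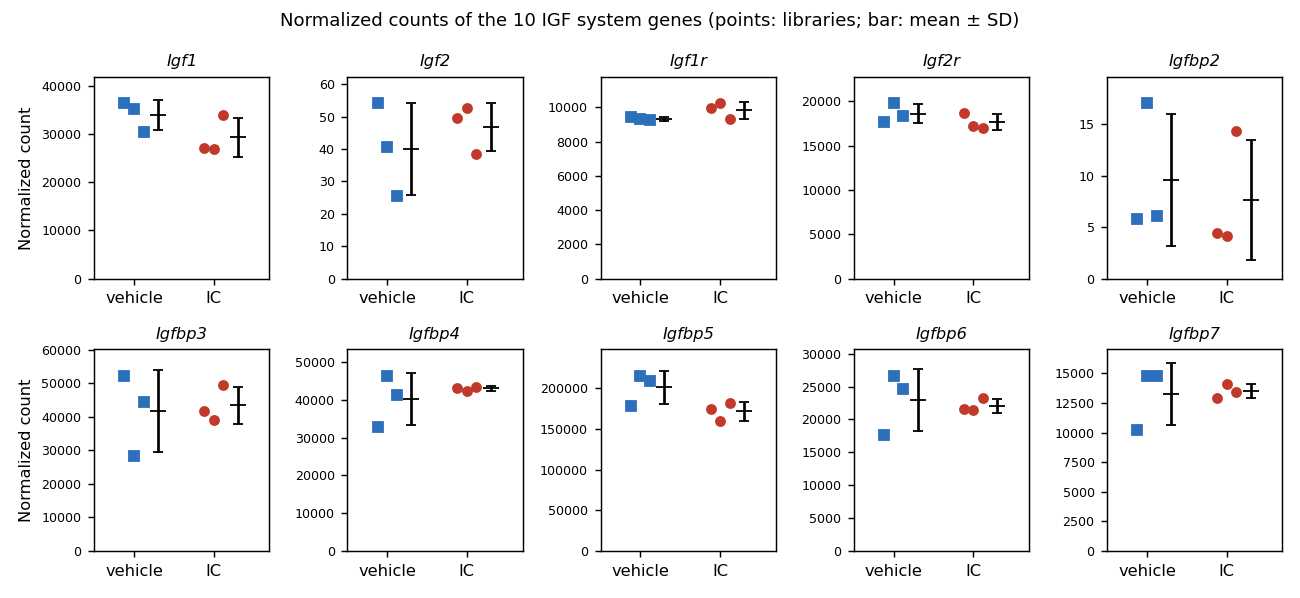
Normalized count of each of the 10 IGF genes by group, 1 point per library with the mean and SD beside them (n = 3 per group), on axes that start at 0. The vehicle and IC points overlap in every panel on this scale, and the 3 vehicle points are spread more widely than the 3 IC points for Igfbp3, Igfbp4, Igfbp6 and Igfbp7.

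Igfbp5, the most abundant member, had normalized counts (counts divided by the DESeq2 size factor) of 174151, 159491 and 181553 in IC replicates 1, 2 and 3, and 178625, 215611 and 209316 in vehicle replicates 1, 2 and 3. Vehicle replicate 1 lay below IC replicate 3, and the other vehicle libraries lay above all IC libraries. In TPM its values were 2434 to 2682 after IC and 2704 to 3150 after vehicle, without overlap. The means were 171731 ± 11228 and 201184 ± 19789 (SD, n = 3 each). The log2 fold change was -0.23 (SE 0.0864, 95% interval -0.40 to -0.06), and the adjusted p was 0.168 (DESeq2) or 0.410 (edgeR). Without vehicle replicate 1 the log2 fold change was -0.31 (DESeq2 adjusted p 0.0023), in a fit that called 3.52% of all genes. With any other library left out the adjusted p was 0.155 to 0.620.

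Igf1 had normalized counts of 27044.7, 26931.3 and 33996.5 in IC replicates 1, 2 and 3, against 36367.9, 35208.5 and 30459.5 in vehicle replicates 1, 2 and 3. IC replicate 3 exceeded vehicle replicate 3, which alone made the groups overlap. The means were 29324 ± 4047 and 34012 ± 3131 (SD, n = 3 each). The log2 fold change was -0.21 (SE 0.101, 95% interval -0.41 to -0.02), and the adjusted p was 0.367 (DESeq2) or 0.571 (edgeR). Without IC replicate 3 it was -0.33 (DESeq2 adjusted p 0.0232), in a fit that called 1.52% of all genes. With any other library left out the adjusted p was 0.299 to 0.855. On the linear scale the mean after IC differed from that after vehicle by -14.6% for Igfbp5 and -13.8% for Igf1, differences that did not pass the test after adjustment. The marker lists and single fibroblast genes that did not overlap between groups, given above, moved with the groups beside these values. Their part in these values was not tested.

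The receptors varied little. Igf1r had 9933.9, 10230.5 and 9294.4 normalized counts after IC and 9432.7, 9321.2 and 9233.5 after vehicle, a log2 fold change of 0.07 (95% interval -0.07 to 0.22, DESeq2 adjusted p 0.847). Its vehicle libraries had a coefficient of variation (CV) of 1.07%. Igf2r had 18669, 17262 and 17000.0 after IC and 17690 to 19778 after vehicle, a log2 fold change of -0.08 (95% interval -0.23 to 0.08, DESeq2 adjusted p 0.849). Igf2r shares 28354 bases with Airn, a non-coding RNA on the opposite strand with 1714 to 2764 counts, and whether counting used strand is not given in the sources used here.

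Among the other binding proteins, the vehicle libraries were farther apart than the groups. Igfbp3 had 41887, 38919 and 49609 normalized counts after IC and 52271, 28346 and 44351 after vehicle, so that the highest and the lowest library were both vehicle libraries. Its log2 fold change was 0.06 (SE 0.236, 95% interval -0.40 to 0.52, DESeq2 adjusted p 0.980), the widest interval among the binding proteins tested. Igfbp4 had 43220.0, 42367 and 43464 after IC and 32751, 46362 and 41348 after vehicle, with a log2 fold change of 0.10 (95% interval -0.11 to 0.30, DESeq2 adjusted p 0.852). The IC libraries of Igfbp4 lay close together and inside the range of the vehicle libraries.

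Igfbp6 ranged from 21408 to 23220 normalized counts after IC and from 17655 to 26640 after vehicle, a log2 fold change of -0.06 (95% interval -0.29 to 0.17, DESeq2 adjusted p 0.947). Igfbp7 ranged from 12920 to 14084 after IC and from 10244 to 14795 after vehicle, a log2 fold change of 0.02 (95% interval -0.21 to 0.26, DESeq2 adjusted p 0.982). Vehicle replicate 1 was the lowest of the 6 libraries for Igfbp4, Igfbp6 and Igfbp7 and the highest for Igf1, Igf2 and Igfbp3. Vehicle replicate 2 was the highest for Igfbp4, Igfbp5, Igfbp6 and Igfbp7 and the lowest for Igfbp3. The CV of the vehicle libraries was 29.3% for Igfbp3, 17.1% for Igfbp4, 20.5% for Igfbp6 and 19.8% for Igfbp7. The corresponding values after IC were 12.7%, 1.34%, 4.59% and 4.32%, and with 3 libraries per group the difference in spread was not tested.

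The least abundant members allowed no firm statement. Igf2 had 38.5 to 52.7 normalized counts after IC and 25.5 to 54.1 after vehicle, a log2 fold change of 0.22 whose 95% interval ran from -0.84 to 1.27 (DESeq2 adjusted p 0.962). Igfbp2 had raw counts of 4, 4 and 16 in the IC libraries and 7, 18 and 5 in the vehicle libraries. It did not reach 10 counts in 3 libraries and was not tested, and these counts were too few to show a difference.

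**Figure D3:**
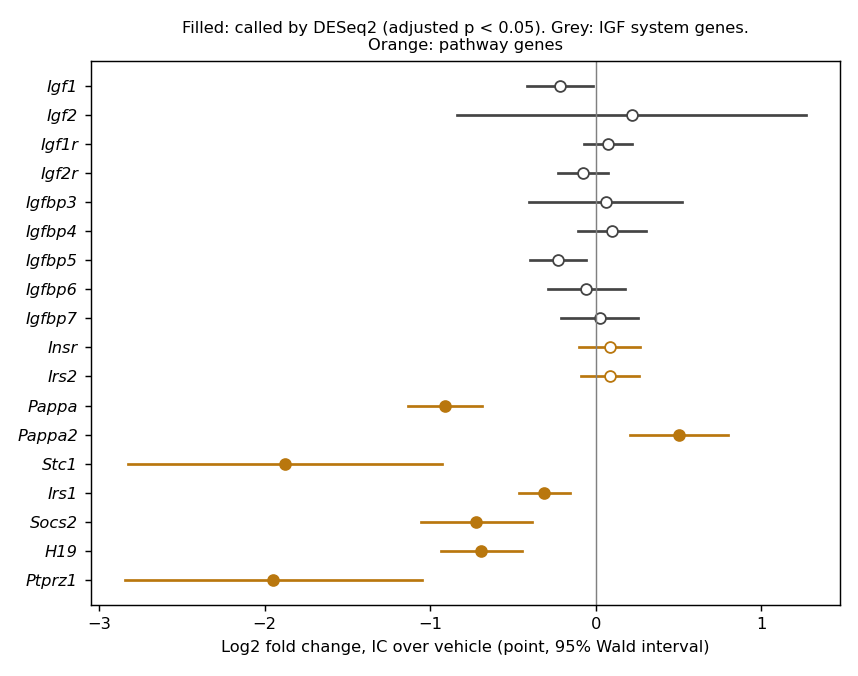
Log2 fold change of IC over vehicle with its 95% interval for the tested members and for the named genes of the pathway (DESeq2, 3 libraries per group). The intervals of Igf1 and Igfbp5 end just below 0 without passing the test after adjustment, and Pappa lies at -0.91.

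**Figure D4:**
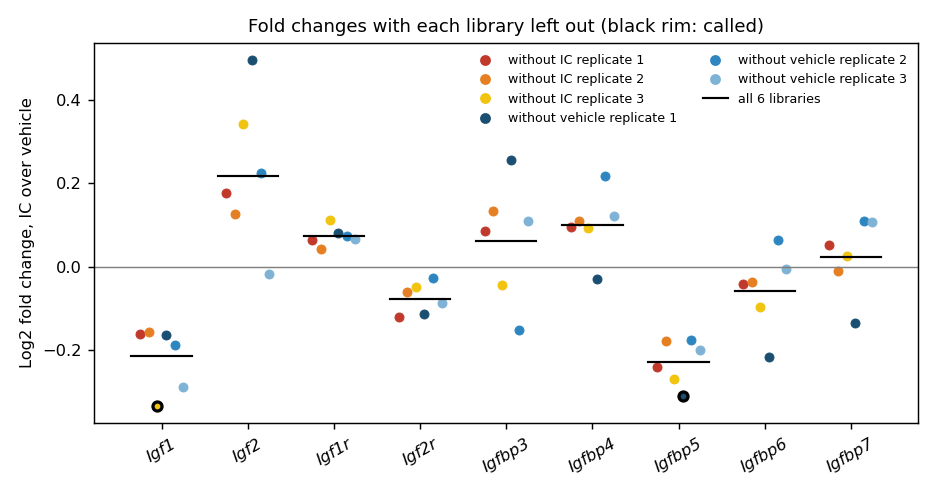
Log2 fold change of IC over vehicle for the 9 tested members with each of the 6 libraries left out in turn (points) and with all libraries (lines), where a black rim marks a DESeq2 adjusted p under 0.05. Rims appear for Igf1 without IC replicate 3 and for Igfbp5 without vehicle replicate 1, and the points of Igfbp3, Igfbp4, Igfbp6, Igfbp7 and Igf2 fall on both sides of 0.

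The makeup of the family was set side by side as well. The 6 binding proteins together had 7506 ± 266 TPM after IC and 7780 ± 585 TPM after vehicle (SD, n = 3 each), and the groups overlapped. For each TPM of Igf1 there were 28.3 ± 2.38 TPM of binding proteins after IC and 25.7 ± 4.42 after vehicle, again with overlap. Igfbp5 made up 32.2% ± 0.879 of the members' summed TPM after IC, with a range of 31.4% to 33.1%. After vehicle it made up 35.8% ± 0.765, with a range of 35.3% to 36.7%. Of the 10 members, only Igfbp5 had shares that did not overlap between groups, a description for which no test was made. In normalized counts the groups of Igfbp5 overlapped, and 15.8% of all tested genes had groups that did not overlap on that scale. No such share over all genes was computed for shares of TPM. As a share of all counts, Igfbp5 took 0.336% to 0.375% after IC and 0.384% to 0.438% after vehicle.

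Around the members, a list of 61 genes of the IGF pathway was examined, of which 57 were in the table and tested and Igfbp1, Igfbpl1, Adam28 and Igf2bp1 were not analysed here. DESeq2 called 7 of the 57 (12.3%), 1 higher and 6 lower after IC, against 2.1% of all genes tested. edgeR called 1, against 0.186% of all genes. At an unadjusted p under 0.05 each tool had 13 of the 57, where 1952 (DESeq2) and 1920 (edgeR) of the 19925 genes reached it. In normalized counts the groups of 14 of the 57 genes did not overlap, against 15.8% of all genes tested. The median log2 fold change of the 57 genes was -0.08, against -0.00187 over all tested genes. The list was drawn up with earlier results of these data known, in which Stc1 and Ptprz1 already stood out, so the count is a description. The counts by role that follow are also to be read beside the 2.1% of all genes called by DESeq2.

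The proteases that cut binding proteins, and their inhibitors, had 3 of 8 genes called. Pappa, at chr4:65124174-65357509, encodes the protease PAPP-A, which cuts IGFBP-4 and so frees IGF. It had 1877, 1997 and 2054 normalized counts after IC and 3167, 4183 and 3813 after vehicle. All IC libraries lay below all vehicle libraries. Pappa fell by 0.91 on the log2 scale (SE 0.115, adjusted p 4.28e-12 in DESeq2, 0.0141 in edgeR), and was called in each of 10 alternatives with all libraries and each of 6 with a library left out. It was the only gene of the list called by edgeR.

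Pappa2, at chr1:158711727-158980490, encodes the related PAPP-A2, which cuts IGFBP-5 and IGFBP-3. It had 2095, 1835 and 2373 normalized counts after IC and 1822, 1417 and 1203 after vehicle, also without overlap, although IC replicate 2 was close to vehicle replicate 1. It rose by 0.50 on the log2 scale (SE 0.152, adjusted p 0.0405 in DESeq2, 0.247 in edgeR), and was called in 4 of the 10 alternatives with all libraries. With a library left out its DESeq2 adjusted p ran from 0.000228 without vehicle replicate 1 to 0.341 without IC replicate 3. The call also held without IC replicate 2 and was lost without each of the other libraries. The log2 ratio of Pappa to Pappa2 normalized counts was -0.208 to 0.122 after IC and 0.798 to 1.66 after vehicle. Both genes were called, in opposite directions, so the ratio is a description and adds no support.

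Stc1, at chr14:69029238-69041804, encodes stanniocalcin-1, an inhibitor of PAPP-A. It had 407.7, 155.0 and 391.6 normalized counts after IC and 858, 1570 and 1078 after vehicle, with a log2 fold change of -1.88 (SE 0.485, adjusted p 0.0079 in DESeq2, 0.0537 in edgeR). Its groups did not overlap, and its DESeq2 adjusted p was above 0.05 when vehicle replicate 2 (0.130) or vehicle replicate 3 (0.0802) was left out. With 1 surrogate variable it was 0.0671 for Stc1 and 0.156 for Pappa2, so neither was called in that fit. Stc2, which encodes the other stanniocalcin, was not called (log2 fold change -0.25, DESeq2 adjusted p 0.897). Htra1, a serine protease that also cuts binding proteins, was not called either (log2 fold change -0.30, DESeq2 adjusted p 0.163).

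Downstream of the receptors few genes were called. Insr had a log2 fold change of 0.08 (DESeq2 adjusted p 0.869). Irs1, at chr1:82233101-82291416, encodes a docking protein that passes the receptor's signal to PI3K. It had 11224, 10974 and 10277 normalized counts after IC and 12981, 14422 and 12868 after vehicle, so the groups did not overlap. Irs1 fell by 0.31 on the log2 scale (SE 0.0797, adjusted p 0.00731 in DESeq2, 0.142 in edgeR). The call was lost without IC replicate 3 (DESeq2 adjusted p 0.0566) and without vehicle replicate 2 (0.0636). With limma-voom Irs1 was not called (adjusted p 0.102). Its relative Irs2 had a log2 fold change of 0.08 (DESeq2 adjusted p 0.851). Of the 10 adaptors and docking proteins Irs1 alone was called, and of the 18 genes of the PI3K, AKT and mTOR branch DESeq2 and edgeR called 0, with 0 at an unadjusted p under 0.05 by either tool.

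In the growth hormone axis, which drives Igf1 transcription in many tissues, 1 of 4 genes was called. Socs2, at chr10:95385362-95417180, encodes an inhibitor of growth hormone signalling. It had 695, 852 and 663 normalized counts after IC and 1475, 1201 and 965 after vehicle. Socs2 fell by 0.72 on the log2 scale (SE 0.171, adjusted p 0.00248 in DESeq2, 0.108 in edgeR). Its groups did not overlap, and among the fits with a library left out the DESeq2 call was lost without IC replicate 3 (adjusted p 0.0526). It was also lost with limma-voom (adjusted p 0.0957). The receptor gene Ghr was not called (log2 fold change 0.08, DESeq2 adjusted p 0.849).

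Of the RNA-level and imprinted partners 1 of 6 was called. H19 had 4209, 4040 and 4808 normalized counts after IC and 5532, 8018 and 7533 after vehicle, without overlap. H19 fell by 0.69 on the log2 scale (SE 0.125, adjusted p 1.37e-05 in DESeq2, 0.0593 in edgeR), and remained called by DESeq2 with each library left out. With limma-voom H19 was not called (adjusted p 0.0547). The fold change of Igf2, its partner in the imprinted region, could not be compared with it, given the interval of Igf2. Of the 7 surface partners 1 was called. Ptprz1, at chr6:22875502-23052916, encodes a receptor phosphatase that has been described as a partner of IGFBP-2. Its normalized counts were 67.2, 52.7 and 26.0 after IC and 283, 185 and 91.2 after vehicle. Its log2 fold change was -1.95 (SE 0.458, adjusted p 0.00221 in DESeq2, 0.131 in edgeR). Its groups did not overlap, and among the fits with a library left out the DESeq2 call was lost without vehicle replicate 1 (adjusted p 0.083). It was also lost with limma-voom (adjusted p 0.175).

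**Figure D5:**
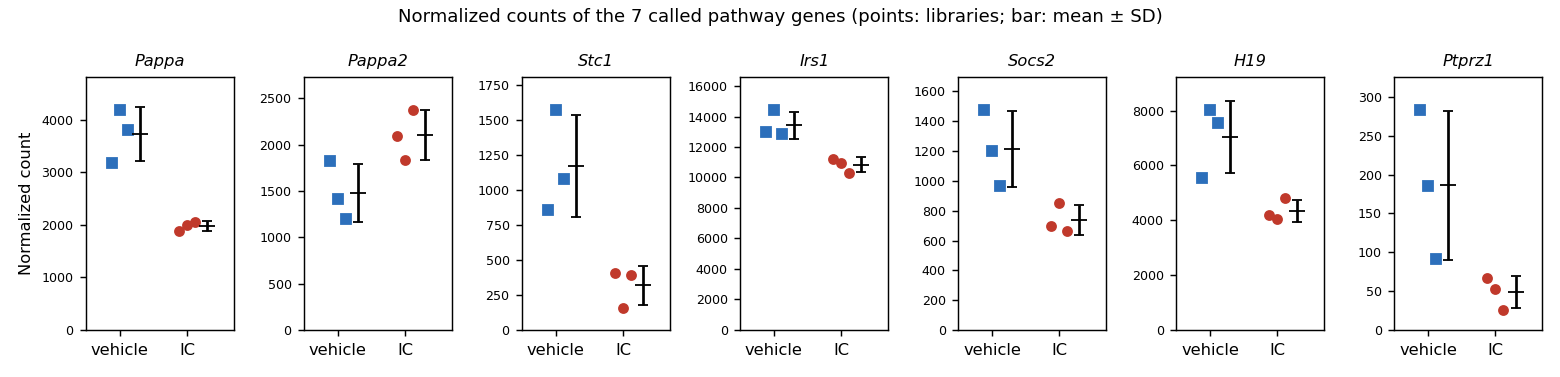
Normalized counts of the 7 pathway genes called by DESeq2, 1 point per library with the mean and SD beside them (n = 3 per group), on axes that start at 0. The IC and vehicle points do not overlap in any panel, with Pappa2 higher after IC and the other 6 lower. The genes were picked by their calls, so this separation adds no support to the calls.

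The muscle satellite cell markers were lower after IC as a list, with 2 of 8 called lower and Pax7 at 2.79 to 13.6 CPM after IC and 14.7 to 35.0 CPM after vehicle. Vcam1 was the most abundant gene of this list, at 82.2 to 84.9 CPM after IC and 102 to 120 CPM after vehicle. Endothelial markers had 2 of 8 called lower, with summed levels of 87.4 to 145 CPM after IC and 141 to 198 CPM after vehicle. Tendon markers had 2 of 5 called higher. Thbs4, Fmod and Mkx were higher after IC without overlap, while Scx and Tnmd overlapped between groups. Lining fibroblast markers had 1 of 6 called higher and 2 called lower, with Prg4 at 361 to 473 CPM after IC and 178 to 281 CPM after vehicle, and Clic5 at 22.0 to 25.8 CPM and 30.9 to 46.0 CPM. All counts of called markers, here and earlier, are to be read beside the 2.1% of all genes called by DESeq2. Marker genes that were called or did not overlap moved with the groups beside the 7 called pathway genes. Their part in the changes of those 7 genes was not tested.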

How the data were processed

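According to the labels and the study's methods, the authors trimmed reads with Trim Galore, aligned them to mm10 with HISAT2 and deposited raw counts per gene from featureCounts. Versions, annotation and strand setting are not given in the sources used here, and the labels and methods name different library kits. The 6 sample files were identical to their columns. Groups came from the sample titles. The 19925 genes that reached 10 counts in 3 or more libraries were tested with DESeq2 (version 1.42.0, R 4.3.3) on all 6 libraries with treatment as the only term. DESeq2's adjusted p-values cover the 16055 tested genes that it kept after its own filter, and 3870 tested genes received none. With independent filtering switched off, DESeq2 called 372 genes. Intervals are the estimate plus or minus 1.96 SE. TPM used GENCODE M21 exon lengths, matched by symbol for 98.1% of genes.

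Alternatives were edgeR (4.0.16), limma-voom (3.58.1), other scalings and filters, the replicate block, 1 surrogate variable from sva (3.50.0) and each library left out. The methods name sva without settings, so it was not part of the test reported first. The tests were also run on counts simulated from the fitted means, spreads and size factors. That setting holds no batches and no mixture of cells, so no conclusion about these data is drawn from it. Members and lists were chosen with earlier results of these data known. Named genes were all members, the pathway genes called by DESeq2, and Insr, Irs1, Irs2, Pappa and H19, with Igfbp1 not analysed here. Stc2, Htra1 and Ghr were named after their values were seen.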

Additional observations from a re-analysis of the deposited data

How the results depend on the processing

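The number of genes called was 419 by DESeq2, 37 by edgeR and 62 by limma-voom. With the replicate block it was 320 by DESeq2 and 22 by edgeR, and with each library left out 281 to 677, the highest without vehicle replicate 1. Members called numbered 0 in all 10 alternatives with every library, and 0 to 1 with a library left out. Pathway genes called numbered 7 by DESeq2, 1 by edgeR, 2 by limma-voom and 1 by edgeR with the replicate block, and 4 to 7 with a library left out, the lowest without IC replicate 3 and without vehicle replicate 2. The deviations of IC and vehicle libraries with the same replicate number had correlations of -0.0918, -0.164 and 0.0250. By these deviations 0 of 3 IC libraries correlated best with their own number. With 3 libraries per group this check has little power, so no conclusion about pairing is drawn from it. Pappa2 and Stc1 were not called by DESeq2 with the block (adjusted p 0.0645 and 0.117) or with 1 surrogate variable (0.156 and 0.0671). edgeR with the block called neither Irs1, Socs2, H19 nor Ptprz1 (adjusted p 0.286, 0.171, 0.105 and 0.0845). With 1 surrogate variable the log2 fold change was -0.11 for Igfbp3 and 0.0597 for Igfbp6, opposite in sign to the fit with treatment alone. With a library left out it ran from -0.016 to 0.50 for Igf2, from -0.15 to 0.26 for Igfbp3, from -0.0292 to 0.22 for Igfbp4, from -0.22 to 0.0644 for Igfbp6 and from -0.13 to 0.11 for Igfbp7. The mean share of Igfbp5 in the members' TPM over 6 libraries was 34.0% with exon lengths and 31.5% with the longest transcript, and the order of levels was the same. The cause of these shifts was not tested. Low counts limit Igf2 and Igfbp2.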
